A study of Mus musculus with 4 samples.

Results

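The 10 genes described here encode cytokines of the interleukin 12 family (Il12b, Il12a, Il23a, Il27 and Ebi3), interleukin 15 with its presenting receptor chain (Il15 and Il15ra), and receptor chains through which lymphocytes read these cytokines (Il12rb1, Il12rb2 and Il2rb). They were taken by symbol from the 32285 genes of the deposited gene lists, and each symbol named 1 row. In GRCm38 all are protein-coding genes. The cytokine genes beside Il12b lie as follows: Il12a at chr3:68690644-68698547 (plus), Il23a at chr10:128296139-128298752 (minus), Il27 at chr7:126589010-126594941 (minus), Ebi3 at chr17:55952640-55957022 (plus) and Il15 at chr8:82331632-82403222 (minus). The receptor genes lie with Il15ra at chr2:11705290-11734317 (plus), Il12rb1 at chr8:70808449-70821424 (plus), Il12rb2 at chr6:67291318-67376188 (minus) and Il2rb at chr15:78479256-78495271 (minus). Their transcripts were followed through 4 single-cell RNA-seq libraries of liver non-parenchymal cells. All mice were male C57BL/6J, entered the study at 8 weeks of age and were followed for 12 or 24 weeks, with 1 library for each diet and week. The MASH mice received the FAT model of metabolic dysfunction-associated steatohepatitis, which combines a Western diet (cholesterol at 1.25%, sucrose at 41% and fat at 21.1%), drinking water with fructose (23.1 g/L) and glucose (18.9 g/L), and a weekly intraperitoneal dose of CCl4, a liver toxin, given in the labels as 0.32 mg per g of body weight. The chow mice stayed on normal chow and no injection is named for them. Every library carried hashtag antibodies, but the sources used here do not say what a hashtag marks or how many animals each library pooled, so 1 library is 1 sample and no p-value was computed.

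Interleukin 12 is a pair of the chains encoded by Il12b (p40) and Il12a (p35), and interleukin 23 pairs p40 with the chain encoded by Il23a (p19). Interleukin 27 pairs the products of Il27 (p28) and Ebi3. Activated dendritic cells and macrophages are the classical sources of interleukin 12, which makes NK cells and T cells produce interferon gamma through a receptor of Il12rb1 and Il12rb2. Interleukin 15 is held on the surface of the producing cell by Il15ra and shown to neighbouring NK, ILC1 and CD8 T cells, which bind it with Il2rb and the common gamma chain and depend on it for survival.

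After doublet removal 15148 MASH and 16438 chow cells were kept at 12 weeks, and 17833 MASH and 21652 chow cells at 24 weeks, with median depths of 3065, 1986, 3206 and 2077 UMIs (unique molecular identifiers, 1 per captured molecule). Dendritic subsets were clusters of cells named from marker genes, and none of the 10 genes was among the variable genes used to cluster the cells. Mature DC-like cells, the Ccr7+ dendritic cells that migrate to lymph nodes, numbered 151 in MASH and 20 in chow at 12 weeks, and 100 in MASH and 11 in chow at 24 weeks. All 9 markers of this state were seen in at least 10% of these cells in every library, with a summed level of 8317 and 8390.1 CPM (counts per 1000000) in MASH and of 10575 and 12180.4 CPM in chow. Antibodies of more than 1 hashtag marked 31.8% and 29% of these cells in MASH and 20% and 36.4% in chow at 12 and 24 weeks. Other lineages' markers were also seen in the class: B cell markers summed to 540.2 and 313 CPM in MASH and 94.9 and 28.1 CPM in chow, and monocyte or macrophage markers to 759 and 562 CPM in MASH and 94.9 and 632 CPM in chow. The part of these cells and markers in the values below was not tested. The other subsets were cDC1-like cells (30 to 140 per library), cDC2-like cells (50 to 312), cycling dendritic cells (55 to 66) and plasmacytoid pDC-like cells (380 to 554). Levels are CPM, the UMIs of a gene per 1000000 UMIs summed over the cells of a class in a library. The 95% intervals, exact Poisson for levels and exact binomial for shares, cover counting error only. They leave out the difference between cells and between animals.

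Promoters are shown for the 3 genes whose dendritic levels are described in most detail and that have an entry in the RefSeq table (GRCm38.p6, 250 bases before to 50 after the annotated start, 5′ to 3′). Of the 10 genes 5 had an entry. Capitals mark matches, on either strand, to 3 patterns. The AP-1-like pattern was TGANTCA. The TATA box pattern was TATANAA. The NF-kB-like pattern was GGG, then any 5 bases, then CC.
Il12b, chr11:44399813-44400112, plus strand: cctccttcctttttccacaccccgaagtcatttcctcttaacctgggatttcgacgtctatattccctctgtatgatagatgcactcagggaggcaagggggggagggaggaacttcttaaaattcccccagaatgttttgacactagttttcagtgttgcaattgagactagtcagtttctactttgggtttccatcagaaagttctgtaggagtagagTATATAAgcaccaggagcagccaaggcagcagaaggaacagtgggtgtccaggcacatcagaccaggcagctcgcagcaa
Il15ra, second entry, chr2:11705462-11705761, plus strand: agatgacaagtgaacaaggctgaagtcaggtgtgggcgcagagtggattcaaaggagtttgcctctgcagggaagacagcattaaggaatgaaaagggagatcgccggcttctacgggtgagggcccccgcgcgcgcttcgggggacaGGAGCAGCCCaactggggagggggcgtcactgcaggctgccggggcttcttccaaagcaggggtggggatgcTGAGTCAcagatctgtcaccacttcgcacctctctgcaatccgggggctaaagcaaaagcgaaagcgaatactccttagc
Ebi3, chr17:55952373-55952672, plus strand: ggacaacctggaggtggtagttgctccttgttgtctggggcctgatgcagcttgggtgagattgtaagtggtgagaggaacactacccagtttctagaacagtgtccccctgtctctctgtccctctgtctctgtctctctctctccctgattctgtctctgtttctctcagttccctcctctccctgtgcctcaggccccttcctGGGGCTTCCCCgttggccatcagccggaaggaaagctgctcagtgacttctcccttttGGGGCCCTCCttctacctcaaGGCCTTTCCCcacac
The Il12b window held TATATAA, beginning 30 bases before the start. This is a match to the TATA box pattern, which is present in 11.3% of the 32851 promoters in the table. The Il15ra window held TGAGTCA, also 30 bases before the start, and 1 match to the NF-kB-like pattern on the minus strand. TGAGTCA matches the AP-1-like pattern TGANTCA, which reads the same on both strands and is present in 7.81% of promoters. The first Il15ra entry, at chr2:11705043-11705342, held no match. The Ebi3 window held 6 matches to the NF-kB-like pattern, in part overlapping each other or lying at the same place on both strands, and 50.8% of promoters held at least 1. An IRF-like pattern, GAAA repeated after any 2 bases (in 3.44% of promoters), was also searched and had no match in these windows. A match is a string of letters and was not tied to binding of any factor.

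Il12b was the member with the narrowest distribution. The gene (ENSMUSG00000004296, chromosome 11, 44400063 to 44414033, plus strand, GRCm38, protein-coding) had 465 UMIs in MASH and 19 in chow mature DC-like cells at 12 weeks, and 321 in MASH and 11 in chow at 24 weeks. These cells made up 0.997% and 0.122% of the MASH and chow cells at 12 weeks and 0.561% and 0.0508% at 24 weeks. They supplied 89.3% of all Il12b UMIs in MASH (86.3 to 91.8) and 76.0% in chow (54.9 to 90.6) at 12 weeks, and 78.5% in MASH (74.2 to 82.4) and 91.7% in chow (61.5 to 99.8) at 24 weeks. Averaged over the 4 libraries the share was 83.9%, as the plot of UMI sources shows. For Il12a, Il23a, Il27, Ebi3 and Il15 the dendritic subsets were not the main source, and most UMIs came from other cells. No other class came near this level. The next in order of mean level were cDC1-like cells at a mean of 3 CPM, C1q macrophages at 2.87 CPM and monocytes and macrophages at 1.66 CPM, and the ranges of these 3 over the libraries overlapped, each reaching 0 in at least 1 library.

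**Figure D1:**
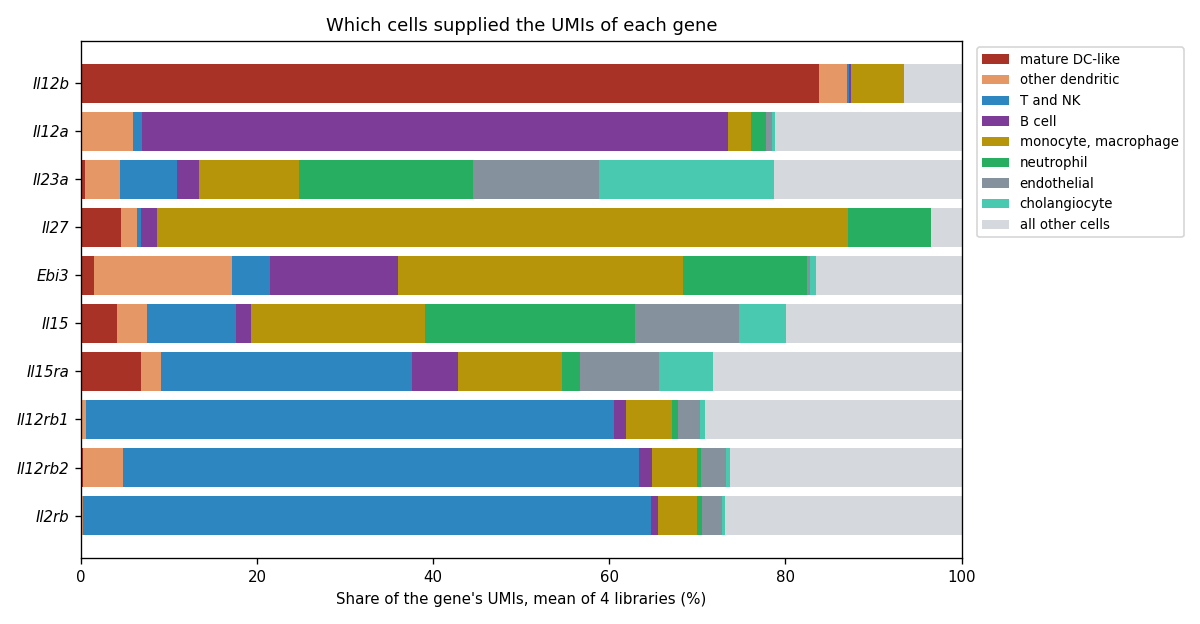
Stacked bars give, for each of the 10 genes, the share of its UMIs (%, mean of the 4 libraries) supplied by each group of cell classes. Mature DC-like cells supplied 83.9% of Il12b, monocytes and macrophages 78.4% of Il27, B cells 66.5% of Il12a, and T and NK classes 64.5% of Il2rb.

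In mature DC-like cells the level of Il12b was 505 CPM in MASH (460 to 553) and 180 CPM in chow (109 to 282) at 12 weeks. At 24 weeks it was 423 CPM in MASH (378 to 472) and 155 CPM in chow (77.1 to 277). The intervals of the MASH and chow libraries did not overlap at either week. MASH over chow, this gave 2.80 (1.77 to 4.70) for the 12-week libraries and 2.74 (1.51 to 5.54) for the 24-week ones. A gene was called when its ratio was at least 2 or at most 0.5 with an interval that excluded 1, and Il12b was called higher at both weeks. In these cells 1.62% of the 7104 genes compared were called higher and 3.03% lower at 12 weeks, and 1.2% of 6563 higher and 4.17% lower at 24 weeks.

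The chow levels rested on few molecules and few cells. A single chow cell held 15 of the 19 UMIs at 12 weeks, and with the highest cell left out of each library the levels were 451 CPM in MASH and 43.6 CPM in chow, a log2 ratio of 3.37. At 24 weeks the 11 chow UMIs lay in 5 cells. The 24-week call was kept in 7 of 11 alternatives. Against part of the chow hashtags it was kept with hashtags 1 to 4 (55.1 CPM, a log2 ratio of 2.94) and lost with hashtags 5 to 8 (699 CPM, a log2 ratio of -0.73). Both chow levels lay outside the counting interval given above for 24-week chow, but each rested on only part of the 11 chow UMIs. As ratios, MASH over chow, their intervals were 1.37 to 304 with hashtags 1 to 4 and 0.303 to 1.41 with hashtags 5 to 8. These intervals overlapped, so no difference between the hashtag sets is read. The call was also lost in single-hashtag cells, with 555 CPM in MASH and 304 CPM in chow (a log2 ratio of 0.87). With each cell weighted equally the 24-week levels were 273 CPM in MASH and 235 CPM in chow (a log2 ratio of 0.22), and with every cell thinned to 1000 UMIs 202 CPM in MASH and 273 CPM in chow (-0.43), and neither was called. The 12-week call was kept in all 9 alternatives that alter the 12-week libraries. Among genes with at least 10 UMIs in both libraries, the median gene of these cells had a MASH over chow log2 ratio of -0.22 at 12 weeks and -0.26 at 24 weeks. It was -0.22 and -0.11 in CD8 T-like cells at the same weeks, and -0.15, -0.17 and -0.12 in cDC1-like, cDC2-like and Treg-like cells at 12 weeks.

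**Figure D2:**
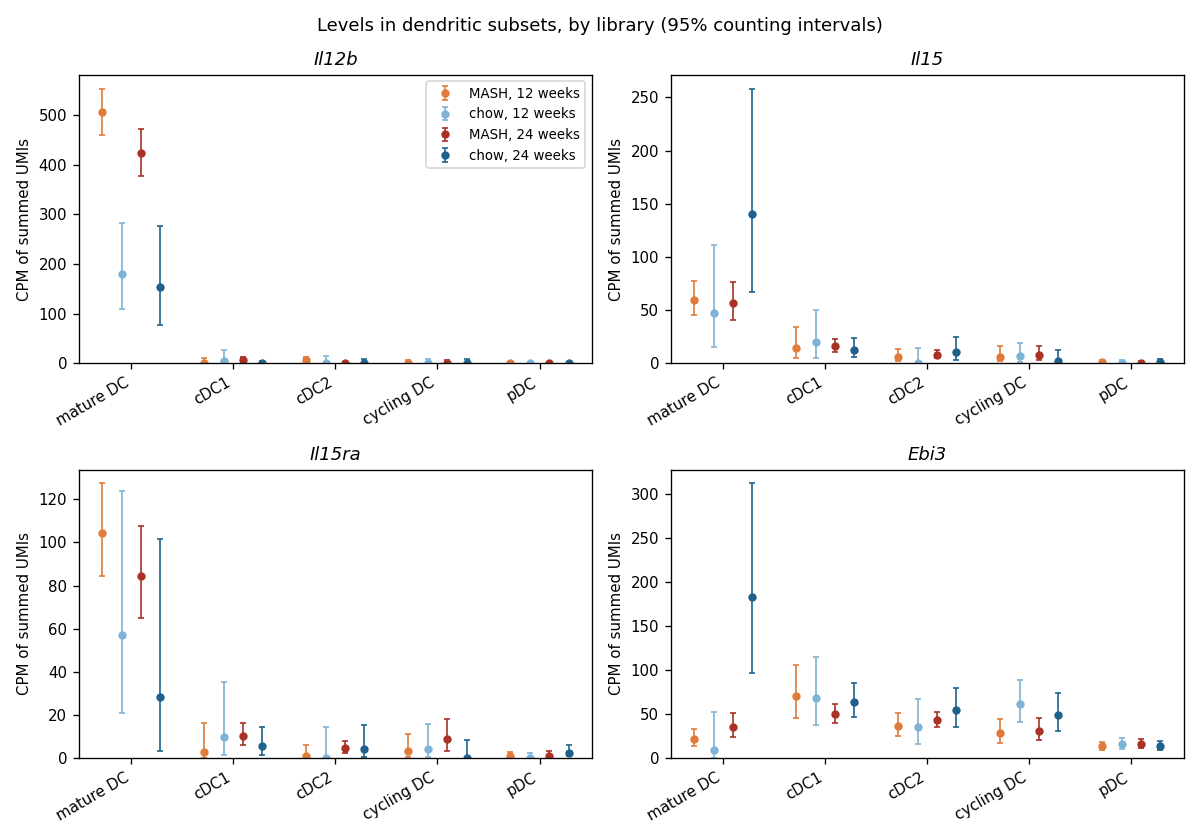
Points are the levels (CPM of UMIs summed over each dendritic subset; bars, 95% counting intervals) of Il12b, Il15, Il15ra and Ebi3 in each library. Il12b stood at 155 to 505 CPM in mature DC-like cells and at or below 7.08 CPM in the other subsets, while Ebi3 was spread over all of them.

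Within the mature DC-like cells Il12b was unevenly distributed. Of the MASH cells 50 of 151 had a UMI at 12 weeks (33.1%), against 3 of 20 chow cells (15%), and 22 of 100 MASH cells at 24 weeks (22%), against 5 of 11 chow cells (45.5%). At 24 weeks this share ran against the CPM, so no order is read from it. Thinned to 1000 UMIs per cell, the shares were 20.1% in MASH and 10.5% in chow at 12 weeks, and 12.8% and 18.2% at 24 weeks. The 5 highest cells held 44.5% of the Il12b UMIs of the 12-week MASH class and 52.0% of those of the 24-week MASH class. At 10 or more UMIs there were 15 cells in MASH and 1 in chow at 12 weeks, and 14 in MASH and 0 in chow at 24 weeks, where a count of 0 among 11 cells says little. The highest single cell held 57 UMIs. In T cells, which should lack the gene, a UMI was found in 0.0374% of MASH and 0 of 3146 chow cells at 12 weeks, and in 0.0578% of MASH and 0 of 4607 chow cells at 24 weeks. Set at the floor of 3 counts, those 2 zeros correspond to shares of 0.0954% and 0.0651%. Median depths were 2574.5 to 3409.5 UMIs in T cells and 4029.5 to 6870.0 UMIs in mature DC-like cells.

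**Figure D3:**
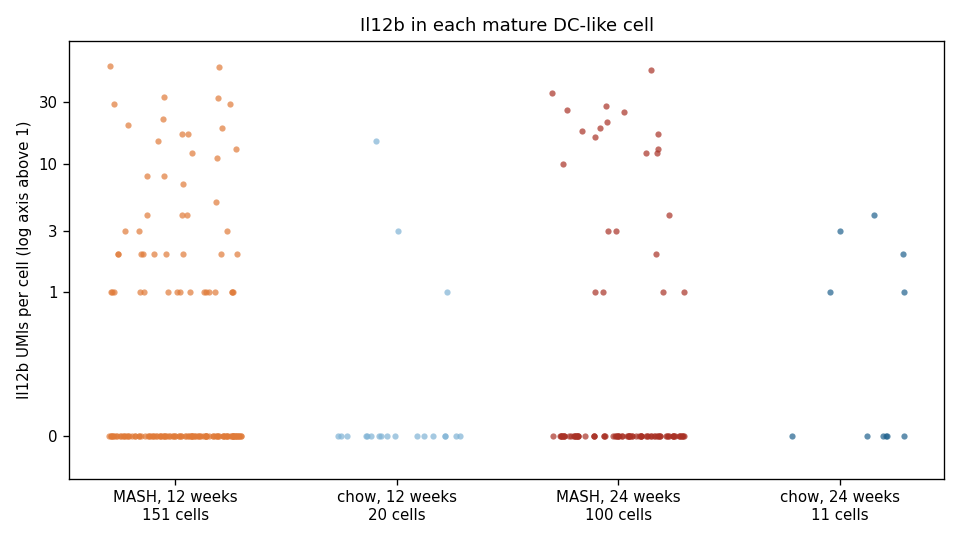
Each point is 1 mature DC-like cell, placed by its Il12b UMIs (axis linear below 1 and logarithmic above) in the 4 libraries. Most cells sit at 0 in every library, and 15 and 14 cells of the MASH libraries reach 10 UMIs, against 1 and 0 cells of the chow libraries.

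Over all kept cells Il12b had 521 UMIs in MASH and 25 in chow at 12 weeks, and 409 in MASH and 12 in chow at 24 weeks. The level was 7.97 and 0.570 CPM at 12 weeks, a MASH over chow ratio of 13.98 (9.36 to 21.8), and 4.69 and 0.198 CPM at 24 weeks, a ratio of 23.7 (13.4 to 46.3). This ratio joins the larger share of mature DC-like cells in the MASH suspensions with the level within them. Outside that class the counts were few. In cDC1-like cells, the subset known for cross-presentation to CD8 T cells, Il12b had 0 UMIs in MASH and 1 in chow at 12 weeks, and 12 in MASH and 0 in chow at 24 weeks, the 12 lying in 4 cells. Against a floor of 3 chow counts the 24-week level was at least 1.67-fold higher in MASH at the observed count, but the interval of the ratio began at 1.16 and the gene was not called there. Monocytes and macrophages had 12 UMIs in 4 of 980 MASH cells and 61 in 7 of 1626 MASH cells at 12 and 24 weeks, and none in 379 and 410 chow cells. C1q macrophages had 33 UMIs in 2 MASH cells at 12 weeks and 1 at 24 weeks, and none in chow. The cDC2-like cells had 6 UMIs over the series, and cycling and pDC-like cells had 1 each.

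The partners of Il12b were not concentrated in mature DC-like cells. Il12a, which encodes the p35 chain that completes interleukin 12, had 3 UMIs in all 282 mature DC-like cells. None lay in the 80 cells with Il12b, which says little about overlap at so low a count. B cells were its main source, with 170 UMIs in MASH and 144 in chow at 12 weeks and 399 in MASH and 360 in chow at 24 weeks. Their levels were 19.2 CPM in MASH and 20.5 CPM in chow at 12 weeks, and 28.5 CPM in MASH and 22.7 CPM in chow at 24 weeks. The B cell ratios, MASH over chow, were 0.937 (0.746 to 1.18) and 1.25 (1.09 to 1.45) at 12 and 24 weeks, and B cells supplied on average 66.5% of the Il12a UMIs. Basophils or mast cells came next at a mean of 18.7 CPM (8.57 to 27.9 over the libraries), a range that overlapped that of B cells.

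Among dendritic subsets pDC-like cells, the main producers of type I interferon, carried Il12a. They had 12.5 CPM in MASH (40 UMIs) and 9.58 CPM in chow (16 UMIs) at 12 weeks, and 2.70 CPM in MASH (7 UMIs) and 2.54 CPM in chow (5 UMIs) at 24 weeks. Both 24-week libraries were below both 12-week libraries. The 24 over 12 weeks ratio was 0.216 (0.0815 to 0.487) in MASH and 0.265 (0.0759 to 0.757) in chow, both called lower, in a comparison where 2.47% (MASH) and 2.46% (chow) of gene and class pairs of the 5 dendritic subsets were called lower. The MASH call was kept in 8 of 9 alternatives and lost when cells were thinned to 1000 UMIs. The chow call was kept in 8 of 11 and lost when thinned, with chow hashtags 1 to 4 and at clustering resolution 2. MASH over chow, Il12a had ratios of 1.31 (0.715 to 2.50) and 1.06 (0.291 to 4.25), and diet was called at neither week. A UMI was found in 6.68% and 3.57% of MASH and chow pDC-like cells at 12 weeks and in 1.32% and 1.27% at 24 weeks, against 0.0318% to 0.13% of T cells.

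Il23a, the p19 chain of interleukin 23, was nearly missing from dendritic subsets, with 6 UMIs in all of them together. Its highest levels were in neutrophils and cholangiocytes, the cells that line bile ducts. Neutrophils had 3.66 CPM in MASH and 3.92 CPM in chow at 12 weeks (3 and 1 UMIs), and 14.7 CPM in MASH and 2.53 CPM in chow at 24 weeks (60 and 7 UMIs, ratio 5.82, 2.66 to 15.1). Cholangiocytes had 10.4 CPM in MASH and 1.67 CPM in chow at 12 weeks (25 and 1 UMIs). At 24 weeks they had 6.21 CPM in MASH and no UMI in chow (46 and 0 UMIs), at least 3.35-fold higher in MASH against a floor of 3 counts, with an interval of the ratio that began at 2.62. Summed over all kept cells, Il23a was higher in MASH, with a 12-week ratio of 2.87 (1.59 to 5.57) and a 24-week ratio of 4.02 (2.64 to 6.35). These ratios join the levels within classes with their shares of the suspension. Cholangiocytes were 1.24% of MASH and 0.42% of chow cells at 12 weeks, and 3.2% and 0.342% at 24 weeks.

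Il27, the p28 chain of interleukin 27, came mainly from monocytes and macrophages, which with the C1q cluster supplied on average 78.4% of its UMIs. Their level was 5.08 CPM in MASH and 10.1 CPM in chow at 12 weeks (34 and 16 UMIs), and 9.002 CPM in MASH and 13.3 CPM in chow at 24 weeks (113 and 27 UMIs). At both weeks the MASH library was the lower, with ratios of 0.502 (0.270 to 0.974) and 0.678 (0.442 to 1.07). Mature DC-like cells held 9 Il27 UMIs in 4 cells over the series. Over all kept cells the 24-week level of Il27 was 2.03 CPM in MASH and 0.593 CPM in chow, a ratio of 3.42 (2.38 to 5.04). This ratio joins the level within classes with their share of the suspension. Monocytes and macrophages were 9.12% of MASH and 1.89% of chow cells at 24 weeks, and C1q macrophages 4.22% and 0.0878%.

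Ebi3, which pairs with p28, was found in all 5 dendritic subsets. It had 70.7 CPM in MASH and 68.8 CPM in chow cDC1-like cells at 12 weeks, and 49.6 CPM in MASH and 63.8 CPM in chow at 24 weeks. The cDC2-like cells, which present antigen mainly to CD4 T cells, had 36.9 CPM in MASH and 35.4 CPM in chow at 12 weeks, and 42.9 CPM in MASH and 54.4 CPM in chow at 24 weeks. In pDC-like cells it stayed between 13.1 and 16.2 CPM. None of these 3 subsets showed a called diet difference, with ratios between 0.778 and 1.18. Ebi3 reads may include molecules from Gm16712, which lies on the opposite strand and overlaps it. No source used here says how strand entered the counting.

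Cycling dendritic cells had 28.4 CPM of Ebi3 in MASH (18 UMIs) and 61.6 CPM in chow (28 UMIs) at 12 weeks, a ratio of 0.460 (0.240 to 0.862), called lower. At 24 weeks they had 31.1 CPM in MASH and 48.7 CPM in chow, a ratio of 0.638 (0.345 to 1.19), not called. The 12-week call was lost in 3 of 7 alternatives. In mature DC-like cells Ebi3 had 21.7 CPM in MASH and 9.49 CPM in chow at 12 weeks (20 and 1 UMIs), and 35.6 CPM in MASH and 183 CPM in chow at 24 weeks (27 and 13 UMIs), a ratio of 0.195 (0.0971 to 0.411). That 24-week value came from 1 chow cell with 12 of the 13 UMIs. Without the highest cell of each library it turned to a log2 ratio of 0.45.

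Outside dendritic cells Ebi3 was highest in neutrophils, with 64.6 CPM in MASH and 47.0 CPM in chow at 12 weeks and 105 CPM in MASH and 69.8 CPM in chow at 24 weeks. Monocytes and macrophages had 39.3 CPM in MASH and 62.6 CPM in chow at 12 weeks, and 39.7 CPM in MASH and 55.6 CPM in chow at 24 weeks. The ranges of neutrophils, cDC1-like cells, mature DC-like cells, C1q macrophages, and monocytes and macrophages overlapped. Treg-like cells, the Foxp3+ cells that restrain immune responses, were the T cell class with the most Ebi3. They had 13.6 CPM in MASH and 25.2 CPM in chow at 12 weeks (12 and 9 UMIs), and 31.3 CPM in MASH and 13.97 CPM in chow at 24 weeks (64 and 9 UMIs), a 24-week ratio of 2.24 (1.11 to 5.13), called higher. In that class 3.19% of genes were called higher at 24 weeks, and the Ebi3 call held in 5 of 11 alternatives.

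**Figure D4:**
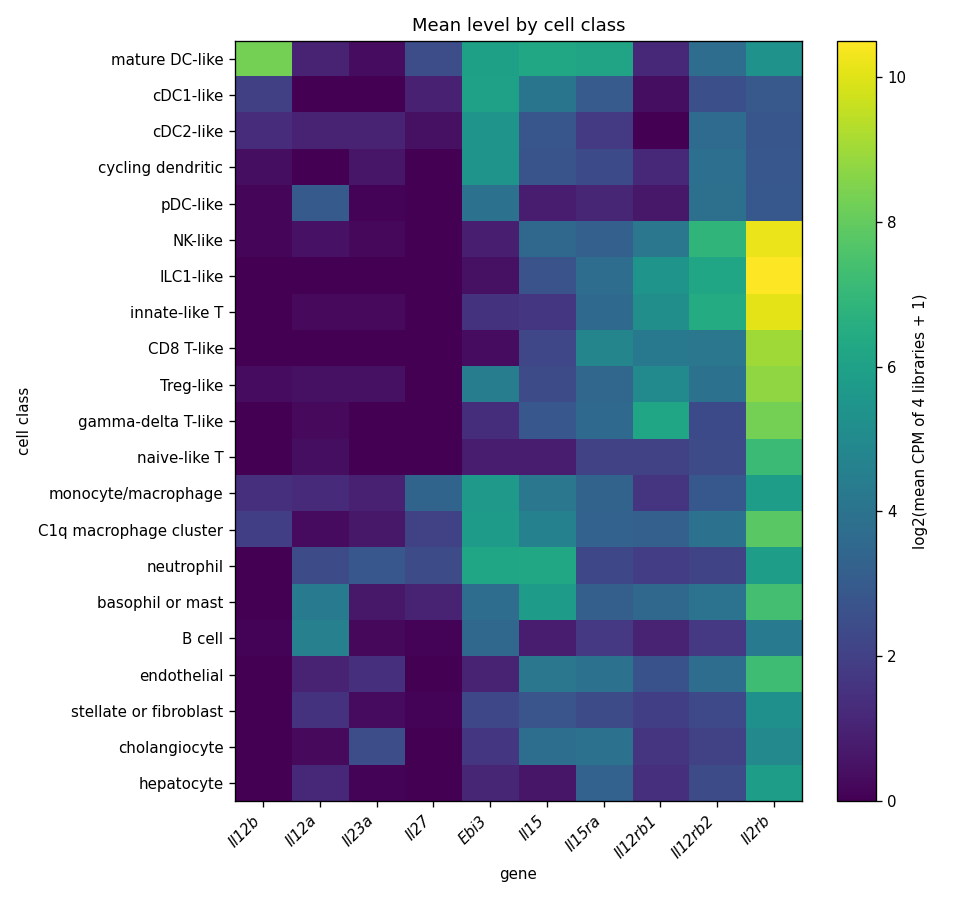
Colour gives the level of each gene (columns) in each cell class (rows) as log2 of the mean CPM of the 4 libraries plus 1, and is to be read down a column, since genes differ in length and capture. Il12b stands out in mature DC-like cells at a mean of 316 CPM, and Il2rb in ILC1-like (1447 CPM), NK-like (1152 CPM) and innate-like T cells (1086 CPM).

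Il15 (chromosome 8, minus strand) was found in many classes. In mature DC-like cells it had 59.8 CPM in MASH (55 UMIs) and 47.5 CPM in chow (5 UMIs) at 12 weeks, and 56.6 CPM in MASH (43 UMIs) and 140 CPM in chow (10 UMIs) at 24 weeks. The chow library at 24 weeks was the highest of the 4, on 10 UMIs in 6 cells. MASH over chow, the 12-week ratio was 1.26 (0.508 to 4.03) and the 24-week ratio 0.403 (0.199 to 0.900), and only the 24-week value was called, as lower. That call was kept in 4 of 11 alternatives, with log2 ratios between -1.87 and -0.70. In these cells 4.17% of genes were called lower at 24 weeks. A UMI of Il15 was found in 27.2% of MASH and 20% of chow mature DC-like cells at 12 weeks and in 27% of MASH and 54.5% of chow cells at 24 weeks, against 0.381% to 1.13% of T cells.

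Neutrophils had about the same mean level of Il15 over the libraries (76.6 CPM) as mature DC-like cells (76.1 CPM), and basophils or mast cells had 52.8 CPM, with overlapping ranges. In neutrophils it was 57.3 CPM in MASH and 43.1 CPM in chow at 12 weeks (47 and 11 UMIs), and 61.9 CPM in MASH and 144 CPM in chow at 24 weeks (252 and 399 UMIs), a ratio of 0.428 (0.364 to 0.503) at 24 weeks. Among other dendritic subsets, cDC1-like cells had 14.7 CPM in MASH and 19.7 CPM in chow at 12 weeks, and 15.9 CPM in MASH and 12.8 CPM in chow at 24 weeks. Their range overlapped that of endothelial cells (16.3 to 18.1 CPM) and of monocytes and macrophages (16.4 to 18.2 CPM). Dendritic subsets supplied a small part of the transcript, 4.06% from mature DC-like and 3.42% from the other dendritic cells on average, against 23.8% from neutrophils and 19.8% from monocytes and macrophages.

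Il15ra, the chain that presents interleukin 15 to other cells, was highest in mature DC-like cells. They had 104 CPM in MASH (84.5 to 127) and 57.0 CPM in chow (20.9 to 124) at 12 weeks, from 96 and 6 UMIs. At 24 weeks they had 84.3 CPM in MASH (64.9 to 108) and 28.1 CPM in chow (3.40 to 101), from 64 and 2 UMIs. The MASH libraries were higher at both weeks but the intervals overlapped, and the ratios of 1.83 (0.811 to 5.12) and 3 (0.797 to 25.3) were not called. CD8 T-like cells were second, at 11.4 CPM in MASH and 52.0 CPM in chow at 12 weeks (9 and 3 UMIs), and 26.2 CPM in MASH and 17.1 CPM in chow at 24 weeks (48 and 6 UMIs). The other dendritic subsets stayed between 0 and 10.0 CPM. Il15 and Il15ra were both found in 35 of the 78 mature DC-like cells with an Il15 UMI (44.9%), and Il15ra was found in 61 of the 204 without (29.9%). The cells with Il15 were deeper, with a median of 7216.5 UMIs against 4608.5, and the part of depth in this difference was not tested.

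The same held for Il12b. Of the 80 mature DC-like cells with an Il12b UMI, 35 had Il15ra (43.8%), 28 had Il15 (35.0%) and 14 had Ebi3 (17.5%). Of the 202 cells without one, 61 had Il15ra (30.2%), 50 had Il15 (24.8%) and 22 had Ebi3 (10.9%). Median depths were 7952.5 UMIs in cells with Il12b and 4916.5 UMIs in cells without, and the part of depth in these shares was not tested. Il23a and Il12a were found in none of the Il12b+ cells, but had only 1 and 3 UMIs in the 282 cells of the class, too few to read overlap from.

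Il2rb, the chain shared by the interleukin 2 and interleukin 15 receptors, was highest in ILC1-like, NK-like and innate-like T cells. ILC1-like cells, named from markers of the tissue-resident innate lymphocytes, had 1488 CPM in MASH and 1332 CPM in chow at 12 weeks, and 1480 CPM in MASH and 1487 CPM in chow at 24 weeks. The T cell markers were not missing from the ILC1-like class. In every library 6 of 7 were seen in at least 10% of its cells, and they summed to 1345 and 1045 CPM in MASH and 2284 and 1557 CPM in chow at 12 and 24 weeks, beside 2358 and 2731 CPM in MASH and 1937 and 2174 CPM in chow for the 8 ILC1 markers. Their part in the values of this class was not tested. NK-like cells had 1225 CPM in MASH and 1190.3 CPM in chow at 12 weeks, and 1130.3 CPM in MASH and 1063 CPM in chow at 24 weeks. A UMI was found in 81.9% to 97.3% of the cells of these 2 classes. Innate-like T cells had 1165 CPM in MASH and 1078 CPM in chow at 12 weeks, and 847 CPM in MASH and 1256 CPM in chow at 24 weeks. The 12-week ratio in these cells was 1.08 (1.02 to 1.15) and the 24-week ratio 0.675 (0.631 to 0.720), which lie on opposite sides of 1 and inside the 2-fold limit.

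Next among the named classes came CD8 T-like cells, with 666 CPM in MASH and 502 CPM in chow at 12 weeks and 408 CPM in MASH and 464 CPM in chow at 24 weeks. Treg-like cells had 452 CPM in MASH and 412 CPM in chow at 12 weeks and 461 CPM in MASH and 396 CPM in chow at 24 weeks. Gamma-delta T-like cells lay between 235 and 379 CPM and naive-like T cells between 99.6 and 175 CPM. An unnamed T or NK cluster led by Ccdc136, Gm14718 and Il2 (663 to 1082 CPM) and another led by Gzmm, Ly6c2 and Nsg2 (613 to 819 CPM) had mean levels between those of innate-like T and CD8 T-like cells. The ranges of neighbouring named classes in this order overlapped between NK-like and innate-like T cells and between CD8 T-like and Treg-like cells, while ILC1-like cells were above NK-like and naive-like T cells below gamma-delta T-like cells in every library. In B cells, which carry little of the gene, a UMI was found in 5.10% of MASH and 5.28% of chow cells at 12 weeks and in 1.12% of MASH and 2.20% of chow cells at 24 weeks, at median depths of 1642 to 2493 UMIs.

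**Figure D5:**
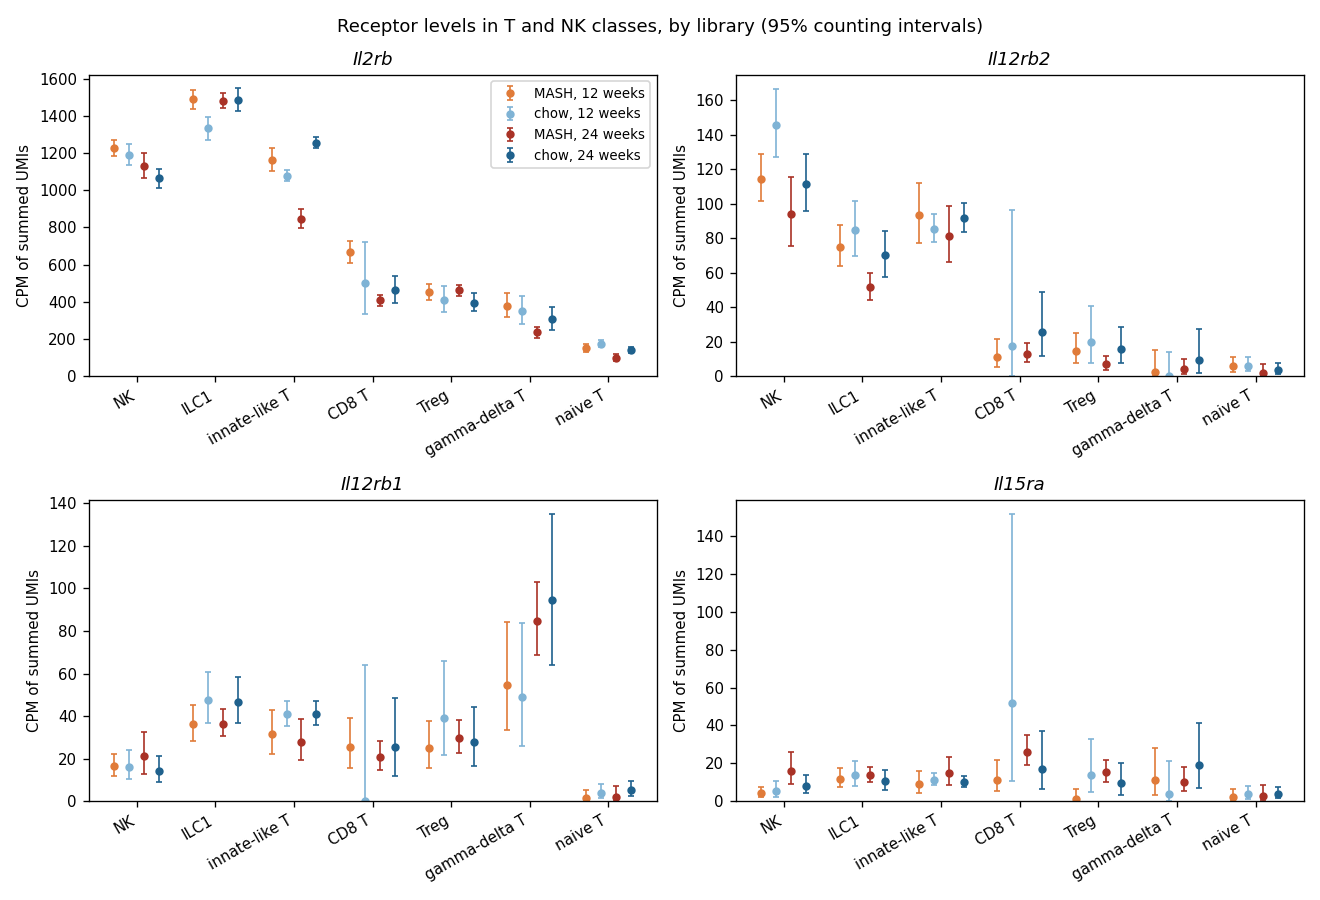
Points are the levels (CPM of UMIs summed over each class; bars, 95% counting intervals) of Il2rb, Il12rb2, Il12rb1 and Il15ra in 7 T and NK classes and 4 libraries. Il2rb was at least 1063 CPM in ILC1-like and NK-like cells in every library, Il12rb2 was highest in NK-like cells (93.9 to 146 CPM) and Il12rb1 in gamma-delta T-like cells (49.1 to 94.6 CPM).

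The 2 chains of the interleukin 12 receptor were distributed differently over the lymphocytes. Il12rb2, a chain of the interleukin 12 receptor, had 114 CPM in MASH and 146 CPM in chow NK-like cells at 12 weeks, and 93.9 CPM in MASH and 111 CPM in chow at 24 weeks. Innate-like T cells had 93.6 CPM in MASH and 85.5 CPM in chow at 12 weeks, and 81.2 CPM in MASH and 91.9 CPM in chow at 24 weeks. ILC1-like cells had 74.9 CPM in MASH and 84.5 CPM in chow at 12 weeks, and 51.5 CPM in MASH and 70.0 CPM in chow at 24 weeks. The range of NK-like cells just cleared that of innate-like T cells (lowest NK-like 93.9 CPM, highest innate-like T 93.6 CPM), and innate-like T cells overlapped ILC1-like cells. In CD8 T-like, Treg-like, gamma-delta T-like and naive-like T cells it was at most 25.6 CPM. MASH over chow, NK-like cells had 0.786 (0.656 to 0.943) and 0.844 (0.647 to 1.09) at the successive weeks, and in ILC1-like cells it was 0.887 (0.692 to 1.14) and 0.736 (0.579 to 0.938). All 4 values lay below 1 and none was called. In B cells a UMI was found in 0.200% to 0.828% of cells. Serbp1 overlaps Il12rb2 on the opposite strand.

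Il12rb1, the chain shared by the interleukin 12 and interleukin 23 receptors, was highest among named classes in gamma-delta T-like cells. They had 54.6 CPM in MASH and 49.1 CPM in chow at 12 weeks (20 and 13 UMIs), and 84.5 CPM in MASH and 94.6 CPM in chow at 24 weeks (98 and 30 UMIs). ILC1-like cells had 36.1 and 36.5 CPM in MASH, against 47.5 and 46.7 CPM in chow, at 12 and 24 weeks. Innate-like T cells had 31.5 and 27.6 CPM in MASH, against 41.0 and 41.1 CPM in chow. The ratios in ILC1-like cells, 0.759 (0.537 to 1.08) and 0.782 (0.585 to 1.05), had intervals that included 1. NK-like cells, with the most Il12rb2, had 14.2 to 21.1 CPM of Il12rb1. In NK-like cells 27 of the 625 with an Il12rb2 UMI also had Il12rb1 (4.32%), as had 77 of the 1793 without (4.29%), at median depths of 2580.0 and 2229 UMIs. An unnamed T or NK cluster led by Slc7a8, Il1rl1 and Stab2 ranged more widely, from 22.5 to 213 CPM over the libraries, on 22 UMIs in 142 cells.

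Receptor genes were also seen in dendritic cells. In pDC-like cells Il12rb2 had 23.5 CPM in MASH (75 UMIs) and 8.98 CPM in chow (15 UMIs) at 12 weeks, a ratio of 2.61 (1.49 to 4.90), called higher against a background of 1.2% of genes. At 24 weeks it had 12.3 CPM in MASH (32 UMIs) and 10.7 CPM in chow (21 UMIs), a ratio of 1.16 (0.647 to 2.11). The 12-week call held in 8 of 9 alternatives and was lost when cells were thinned to 1000 UMIs. The 12-week MASH library stood apart from the other 3. A UMI was found in 12.1% of MASH and 3.32% of chow pDC-like cells at 12 weeks, above the share in B cells of 0.615% and 0.828%. Median depths in MASH and chow were 5692 and 4218 UMIs in pDC-like cells and 2451 and 1642 UMIs in B cells. The part of depth in these shares was not tested. Il2rb in pDC-like cells was found in 5.05% of MASH and 3.83% of chow cells at 12 weeks and in 1.58% of MASH and 1.77% of chow cells at 24 weeks. These shares were at or below those of B cells except in the 24-week MASH library (1.12% in B cells). The pDC-like cells had the higher median depth in every library. The 24 over 12 weeks ratio of Il2rb was 0.255 in MASH and 0.330 in chow pDC-like cells. In B cells it was 0.213 in MASH and 0.377 in chow. The part of depth and of RNA from outside the cells in these values was not tested. Mature DC-like cells had 46 Il2rb UMIs in MASH and 6 in chow at 12 weeks and 30 in MASH and 1 in chow at 24 weeks, with 80.0% of the 24-week MASH UMIs in 5 cells. NK or ILC1 markers in the class summed to 2230.2 and 1830.5 CPM in MASH and to 2449 and 2824 CPM in chow at 12 and 24 weeks, with Ncr1, Klrb1c and Gzma at 0 in the 24-week chow cells, and their part in the Il2rb UMIs was not tested. In 12-week MASH these markers summed to 8490 CPM in pDC-like, 4961 CPM in cDC2-like and 1473 CPM in cDC1-like cells. In mature DC-like cells all 8 NK or ILC1 markers had a UMI in both MASH libraries. At 12 and 24 weeks 5 and 4 of them were seen in at least 10% of MASH cells, and 6 and 3 in chow. Of the 7 T cell markers 0 and 5 were seen in at least 10% of MASH cells, and 3 and 1 in chow. The part of cells with T cell markers in the Il2rb UMIs was not tested either.

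Counted over the 5 dendritic subsets and 10 genes, 14 of 50 gene and subset pairs had the 10 UMIs needed to compare MASH with chow at 12 weeks. Of these 2 were called higher and 1 lower, where 1.65% and 2.45% of all gene and subset pairs were called. At 24 weeks 21 pairs were compared, with 1 called higher and 2 lower, against 1.71% and 2.21%. The median log2 ratio of the 5 members compared in mature DC-like cells was 0.87 at 12 weeks and 1.45 at 24 weeks, beside 0 over all genes compared there, of which 704 and 962 had no UMI in 1 library. At 24 weeks the main values of the 5 differed in sign. The log2 ratio was 1.45 for Il12b, called higher, and -1.31 for Il15 and -2.36 for Ebi3, called lower. The values of 1.58 for Il15ra and 1.49 for Il2rb were not called and rested on 2 and 1 chow UMIs. The calls were kept in 7 of 11 alternatives for Il12b, 4 of 11 for Il15 and 5 of 8 for Ebi3. Under alternatives the log2 ratio fell to -0.73 for Il12b and rose to 0.45 for Ebi3, so no divergence is read from these values. Over the 7 named T and NK classes none of 28 pairs was called at 12 weeks (background 1.47% higher and 2.1% lower), and 1 of 33 was called higher at 24 weeks (2.22% and 2.01%). The called members were those named above, and the receptor genes of NK-like, ILC1-like, innate-like T, CD8 T-like, gamma-delta T-like and naive-like T cells had no called diet difference.

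Between weeks, the comparison within MASH held 23 dendritic pairs, of which 0 were called higher and 2 lower (3.19% and 2.47% of all pairs), and 29 T and NK pairs, of which 4 were called higher and 1 lower (3.38% and 2.19%). Within chow 12 dendritic pairs were compared, with 1 called higher and 2 lower (2.53% and 2.46%). Of 29 T and NK pairs in chow none was called (2.48% and 2.18%). These ratios use the same libraries as the diet ratios. The higher chow call was Ebi3 in mature DC-like cells, on 1 UMI at 12 weeks and 13 at 24 weeks, most of them in 1 cell. In both diets the lower dendritic calls were Il12a and Il2rb in pDC-like cells. The Il2rb call was kept in 8 of 9 alternatives in MASH and 5 of 11 in chow. The called values in T and NK classes lay within MASH. When cells were thinned to 1000 UMIs none of the 4 higher calls and not the lower one was kept, and 1 pair in all was then called, as lower. Il15ra had 15.8 CPM at 24 weeks and 4.09 CPM at 12 weeks in NK-like cells (ratio 3.87, 1.63 to 9.64), and 26.2 and 11.4 CPM in CD8 T-like cells (2.31, 1.12 to 5.34). In Treg-like cells it had 15.2 CPM at 24 weeks on 31 UMIs and 1.13 CPM at 12 weeks on 1 UMI (13.4, 2.24 to 547). Ebi3 in Treg-like cells had 31.3 CPM at 24 weeks and 13.6 CPM at 12 weeks (2.31, 1.24 to 4.70). Il15 in NK-like cells was lower, with 5.28 CPM at 24 weeks and 14.3 CPM at 12 weeks (0.369, 0.113 to 0.945).

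The wider pathway was read in 4 lists of genes, of signalling (16), dendritic activation (12), handling stress (9) and lymphocyte targets (9). Among the signalling genes, Stat4, the transcription factor that relays interleukin 12, was called lower in mature DC-like cells at both weeks, with 92.4 CPM in MASH and 285 CPM in chow at 12 weeks (0.324, 0.212 to 0.510) and 63.2 CPM in MASH and 267 CPM in chow at 24 weeks (0.237, 0.137 to 0.427). Socs3, a feedback inhibitor of STAT signalling, was called lower in them at 24 weeks (0.397, 0.214 to 0.791). In each of the 7 named T and NK classes 15 signalling genes were compared. At 12 weeks 1 was called, Il6st, a receptor chain of the interleukin 6 family, lower in innate-like T cells (0.342, 0.152 to 0.675). At 24 weeks Socs3 was called higher in innate-like T (2.66), naive-like T (2.96) and CD8 T-like cells (8.73, on 2 chow UMIs). Cish, a gene induced through STAT5, was called higher in Treg-like cells (2.14, 1.64 to 2.82) and Stat5a lower in CD8 T-like cells (0.384, 0.195 to 0.789). Over all gene and class pairs of these classes 1.47% were called higher and 2.1% lower at 12 weeks, and 2.22% and 2.01% at 24 weeks.

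Of the 11 dendritic activation genes compared in mature DC-like cells, none was called at 12 weeks, and 1 was called higher and 4 lower at 24 weeks (median log2 ratio -0.33 and -0.32), where 1.2% and 4.17% of all genes were called higher and lower at 24 weeks. Cd40, the receptor through which T cells license dendritic cells, had 162 CPM in MASH and 42.1 CPM in chow at 24 weeks (123 and 3 UMIs, 3.84, 1.28 to 18.9). The costimulatory ligand genes Cd80 (0.141, 0.0641 to 0.320) and Cd86 (0.141, 0.0773 to 0.261) were called lower at the same week, on 12 and 20 chow UMIs. Irf4 (0.196) and Nfkb1 (0.469), which encode transcription factors of dendritic activation, were the other two called lower. In cDC2-like cells Relb, an NF-kB subunit of mature dendritic cells, was called higher at both weeks, with 55.9 CPM in MASH and 19.7 CPM in chow at 12 weeks (2.84, 1.14 to 9.12) and 51.8 CPM in MASH and 23.0 CPM in chow at 24 weeks (2.25, 1.22 to 4.62). It was the 1 gene of 12 called in cDC2-like cells, where 1.97% and 2.53% of all genes were called higher at 12 and 24 weeks. Monocyte or macrophage markers in these cells summed to 2204 and 2361 CPM in MASH and 3094 and 3324 CPM in chow, above the cDC2 markers themselves (1736 and 1702 CPM in MASH and 1504 and 1606 CPM in chow), and their part in the Relb values was not tested. In the other 3 subsets Irf4 was called lower in cDC1-like cells (0.224) and Il18 higher in cycling dendritic cells (2.49), both at 24 weeks. Of all genes 2.12% were called lower in cDC1-like and 1.59% higher in cycling dendritic cells at that week. Genes of handling stress differed at 12 weeks. Of 9 such genes 2 were called higher in mature DC-like, cycling and pDC-like cells and 3 in cDC1-like and cDC2-like cells, and none lower, among them Hspa1b in all 5 subsets (ratios 2.35 to 5.47), where 1.65% of all gene and subset pairs were called higher. At 24 weeks none was called higher in any dendritic subset, and 1 of 9 was called lower, in mature DC-like cells, where 4.17% of all genes were. The part of the stress genes in the differences at either week was not tested.

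Among target genes of these cytokines in lymphocytes, Ifng, which encodes interferon gamma, was called lower in MASH at both weeks in naive-like T cells (0.170 and 0.382) and gamma-delta T-like cells (0.324 and 0.356). In NK-like cells Ifng had 382 CPM in MASH and 765 CPM in chow at 24 weeks (0.499, 0.443 to 0.562), while no target was called there at 12 weeks. The stress genes Hspa1a and Hspa1b were also lower in these 24-week MASH NK-like cells (0.442 and 0.403), and their part was not tested. At 12 weeks the stress genes ran the other way. They were called higher in MASH for 3 of 9 in naive-like T and innate-like T cells, 2 of 8 in CD8 T-like cells and 1 of 9 in NK-like and Treg-like cells, and for none in ILC1-like and gamma-delta T-like cells. None was called lower at that week, where 1.47% of all gene and class pairs of the 7 named T and NK classes were called higher and 2.1% lower. The part of the stress genes in the 12-week values was not tested. CD8 T-like cells had a called higher level of Bcl2, a survival gene, at both weeks (6.46, 2.50 to 23.8, and 2.06, 1.60 to 2.69) and a called lower level of Il18rap, a chain of the interleukin 18 receptor (0.313 and 0.211), from only 25 chow cells at 12 weeks. Gzmb, the gene for granzyme B, was called lower at 24 weeks in ILC1-like (0.475), innate-like T (0.353), CD8 T-like (0.415), naive-like T (0.340) and gamma-delta T-like cells (0.189), while in gamma-delta T-like cells at 12 weeks it was called higher on 14 UMIs in MASH and 1 in chow. In Treg-like cells Il10 was called higher at both weeks (2.30, 1.02 to 6.10, and 15.5, 2.65 to 623), the second value from 49 UMIs in MASH and 1 in chow. Of the 7 to 9 targets compared per named T and NK class at 12 weeks, 0 to 1 were called higher and 0 to 1 lower. Over all gene and class pairs 1.47% and 2.1% were called there. Of the 8 or 9 targets at 24 weeks 0 to 1 were called higher and 0 to 2 lower, where 2.22% and 2.01% of all pairs were called. B cells also had targets called lower, 1 of 9 at 12 weeks and 3 of 8 at 24 weeks (median log2 ratio -0.55 and -0.65). In B cells 2.78% and 2.47% of all genes were called lower. No target was called higher in B cells, and the part of RNA from outside the cells in the lower values was not tested.

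Genes whose level followed the members over 23 named classes were found among 7653 genes by the correlation of log2(CPM + 10), which is a description over classes that share libraries and has no test. The 5 nearest Il12b were Dscaml1 (r = 0.992), Slco5a1, Gm10851, Fxyd2 and Gm13546 (0.978). No other class came near the Il12b level of mature DC-like cells, so these r values rest almost wholly on that 1 class. A gene largely confined to mature DC-like cells would rank high for that alone, and no shared change between diets or weeks is read from r. For Il15 the values were lower, from Adam8 (0.804) through Marcksl1, Hdc and Cpne2 to Lilr4b (0.768). Il2rb was nearest to Ifng (0.989), then Ctsw, Nkg7, Dok2 and Gm19585 (0.959). Il12rb2 was nearest to genes of NK receptors, Klra1 (0.910), Klrc2, Klra9 and Klre1, and to Samd3 (0.881). The Klra genes are near-identical copies whose counts may be split between them.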

How the data were processed

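Liver non-parenchymal cells of MASH and chow mice were profiled by 10x 5′ single-cell RNA-seq, with 1 library for each diet and week. The deposited values are raw UMI counts per gene and cell barcode, made by the authors with Cell Ranger, per the file headers in version 5.0.1 for 3 libraries and version 4 for MASH at 12 weeks. Of genome builds, mm10 and GRCh38 stand in the submitters' processing notes with no role given. Livers were kept on ice overnight before digestion with collagenase, per the labels' protocols, and how that moves stress genes was not measured here.

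Barcodes with at least 500 gene UMIs, 300 genes and at most 15% mitochondrial UMIs were kept. The 12-week MASH matrix holds all 737280 barcodes and its barcode list does not name the columns, so the same filter set its cells. Scrublet (scanpy 1.11.5) removed 10.6% to 20.7% of passing cells. The libraries shared up to 732 cell barcodes in a pair (3.67%). Cells were clustered (2000 variable genes, 30 principal components, 15 neighbours, Leiden resolution 1, leidenalg 0.10.2) and named from marker lists, and the thresholds for naming were set after the data were seen. The 10 genes and the pathway lists were left out of the variable genes.

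UMIs were summed by class and library, with exact Poisson intervals for levels and exact conditional binomial intervals for ratios, all at 95%. A pair of libraries was compared at 10 or more UMIs, and a library at 0 was taken at a floor of 3 counts. Alternatives kept doublets, changed the resolution, the minimum, the scaling or the weighting, thinned cells to 1000 UMIs, or took single-hashtag cells or part of the hashtags. Leaving out the top cell was added after seeing the data. Genes named outside the 10 are list genes past the ratio rule and the 5 nearest genes by correlation. Counts of the signalling list in dendritic subsets, and 1 result of it, are not reported here. The code was tested on simulated counts. The members and lists were chosen with earlier results of these data known. Python 3.11.15, scipy 1.17.1 and numpy 2.4.6 were used.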

Additional observations from a re-analysis of the deposited data

Results flagged for a closer look

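For 3 gene and class pairs the MASH over chow ratio lay on opposite sides of 1 at 12 and 24 weeks, with intervals that excluded 1 at both, and the difference between weeks was not tested. Il2rb in innate-like T cells had a ratio of 1.08 at 12 weeks and 0.675 at 24 weeks. Il12rb2 in the unnamed T or NK cluster led by Ccdc136, Gm14718 and Il2 had a ratio of 1.60 at 12 weeks and 0.551 at 24 weeks. Il2rb in erythroid cells had a ratio of 0.696 at 12 weeks and 1.73 at 24 weeks.

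The 12-week MASH matrix also holds barcodes too shallow to be cells. In its 362780 barcodes with fewer than 100 UMIs, 795237 UMIs in all, Il2rb had 262 UMIs, Il12rb2 25, Ebi3 8, Il15ra 7, Il15 5, Il12b 4 and Il12rb1 4. Each count is above 3, the floor at which a count of 0 was taken here. Whether these UMIs came from RNA outside cells or from damaged cells was not tested.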

How the results depend on the processing

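No paired analysis was possible because each group is 1 library. Few UMIs are a limit throughout, since the 11 and 20 chow mature DC-like cells hold few. The intervals cover counting error only, and none covers the difference between cells or between animals. Values below are log2 ratios, CPM, shares of Il12b UMIs from mature DC-like cells, or numbers of called gene and class pairs (as reported: MASH over chow, dendritic 3 and 3 and T and NK 0 and 1 at 12 and 24 weeks; 24 over 12 weeks, dendritic 2 and T and NK 5 in MASH, and 3 and 0 in chow). Where a value moved, the cause was not tested.

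With doublets kept, the T and NK week pairs in chow were 1 and the 12-week MASH share was 79.7%. At resolution 0.5, and with size factor scaling, those week pairs were 1. At resolution 2 the T and NK pairs were 3 at 12 weeks and 2 at 24 weeks, and the dendritic week pairs in chow 1. In single-hashtag cells, mature DC-like Il15 at 12 weeks was 2.41, NK-like Il2rb at 24 weeks 0.24, both sets of 24-week pairs 0, and the dendritic week pairs 4 in MASH and 1 in chow. Il12b there was 594 and 555 CPM in MASH at 12 and 24 weeks and 304 CPM in 24-week chow, with MASH shares of 95.8% and 91.6%. Against chow hashtags 1 to 4, Il12b at 24 weeks was 2.94, the dendritic pairs 1, the chow week pairs 0 (dendritic) and 1 (T and NK), and chow had 55.1 CPM and a share of 50%. Against hashtags 5 to 8, Il12b at 24 weeks reversed to -0.73, the 24-week pairs were 0 (dendritic) and 2 (T and NK), the T and NK week pairs in chow 2, and chow had 699 CPM and a share of 100%. The chow levels and shares of either hashtag set rest on few UMIs.

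With cells weighted equally, Il12b at 24 weeks was 0.22, MASH had 434 and 273 CPM at 12 and 24 weeks, the T and NK pairs were 1 and 3, and the week pairs 4 (dendritic, MASH) and 2 (T and NK, chow). Thinned to 1000 UMIs, Il12b was 2.34 at 12 weeks and reversed to -0.43 at 24 weeks, with 202 CPM in 24-week MASH and 105 CPM in 12-week chow, and the dendritic pairs were 1 and 0. The week pairs were then 1 and 1 in MASH and 0 (dendritic) in chow. Without the top cell, chosen after seeing the data, Il12b at 12 weeks was 3.37, with 451 and 362 CPM in MASH at 12 and 24 weeks and 43.6 CPM in 12-week chow. The 24-week dendritic pairs were 1, and mature DC-like Ebi3 at 24 weeks reversed to 0.45. In all, 144 of the main values under an alternative stayed within their interval or count, 49 moved and 2 reversed; of the others 1773 stayed, 114 moved and 1 reversed.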
